A study of Mus musculus with 24 samples.

Results

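The aryl hydrocarbon receptor genes followed here were Cyp1a1, Cyp1a2, Cyp1b1, Ahr, Ahrr, Arnt and Tiparp, 7 of the 36528 genes counted in organoids of mouse small intestine. They were chosen by symbol, because Cyp1a1 was higher with the peptide Fz7-21S than with DMSO at both times and fell between 6 h and 24 h. Those contrasts are therefore given as descriptions, without a test. Organoids are cultures grown in a gel in which epithelial stem cells form crypt-like structures along with their mature progeny. Polyadenylated RNA of 24 libraries was sequenced, 4 in each of 6 groups: DMSO, dFz7-21 or Fz7-21S, each for 6 h and for 24 h. DMSO is a common solvent, and dFz7-21 is a peptide blocker of the Wnt receptor Frizzled 7, by the series' own description. Fz7-21S serves as the control peptide, and the labels give its name alone. Neither the doses nor the strain, genotype, age or number of the donor mice are in the labels. Nothing there says that the 4 libraries of a group are independent cultures or animals, and a p-value then reflects only how far these libraries scatter, which may be technical.

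The receptor encoded by Ahr waits in the cytoplasm in a complex with HSP90 until it binds a planar ligand, such as a dioxin, a plant indole or a product of tryptophan. It then enters the nucleus, pairs with the protein encoded by Arnt and binds short DNA elements beside its target genes. Cyp1a1, Cyp1a2 and Cyp1b1 encode cytochrome P450 enzymes that oxidise many of these ligands. Ahrr encodes a repressor that competes for ARNT, and Tiparp an ADP-ribosyltransferase that restrains the receptor, so several targets feed back on the pathway. In the gut the receptor is known for sensing dietary and microbial indoles and for its part in barrier function.

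The core of the element bound by the receptor and ARNT is GCGTG, or CACGC on the opposite strand. The 250 bases before the RefSeq start of the 4 expressed target genes are shown because these genes are the usual readouts of the receptor. Sequences are from RefSeq on GRCm38.p6, 5′ to 3′ on the strand of the gene, with each core match in capitals.
Cyp1a1 starts downstream of chr9:57697363-57697612 (plus strand), with 1 match 54 bases before the start. This start is that of the shorter of 2 annotated transcripts (GENCODE vM21), and it lies 9685 bases inside the gene as annotated, whose longer transcript begins upstream.
Cyp1a1: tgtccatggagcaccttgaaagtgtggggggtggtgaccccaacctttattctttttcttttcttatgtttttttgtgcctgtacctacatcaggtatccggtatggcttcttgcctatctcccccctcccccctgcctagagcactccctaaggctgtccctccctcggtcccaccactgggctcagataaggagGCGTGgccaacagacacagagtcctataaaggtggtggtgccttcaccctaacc
Ahrr starts downstream of chr13:74292332-74292581 (minus strand), with 3 matches that begin 107, 82 and 27 bases before the start.
Ahrr: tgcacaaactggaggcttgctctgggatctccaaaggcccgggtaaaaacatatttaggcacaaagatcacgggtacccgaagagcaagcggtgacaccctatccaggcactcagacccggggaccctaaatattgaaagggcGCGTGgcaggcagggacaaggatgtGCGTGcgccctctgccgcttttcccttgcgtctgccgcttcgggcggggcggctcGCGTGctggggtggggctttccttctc
Tiparp starts downstream of chr3:65528197-65528446 (plus strand), with 1 match 170 bases before the start. Of its 3 annotated transcripts (GENCODE vM21), 0 begin at exactly this base.
Tiparp: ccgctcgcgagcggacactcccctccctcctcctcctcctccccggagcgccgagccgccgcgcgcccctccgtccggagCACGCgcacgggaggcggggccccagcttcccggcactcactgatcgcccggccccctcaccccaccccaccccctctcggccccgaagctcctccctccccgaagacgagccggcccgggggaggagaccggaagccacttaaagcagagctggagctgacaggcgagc
Cyp1b1 starts downstream of chr17:79715062-79715311 (minus strand), with 1 match 76 bases before the start.
Cyp1b1: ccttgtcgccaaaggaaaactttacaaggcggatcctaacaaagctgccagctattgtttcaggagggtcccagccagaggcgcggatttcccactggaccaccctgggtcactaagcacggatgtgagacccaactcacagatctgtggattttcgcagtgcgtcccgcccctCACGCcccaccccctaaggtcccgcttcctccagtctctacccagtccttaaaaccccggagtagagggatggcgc
Promoter entries were found for 6 of the 7 genes, all except Ahr. The Arnt window, whose start lies 23 bases inside the annotated gene, held 1 match 29 bases before that start, and the Cyp1a2 window held 0. Of the 2 annotated Cyp1a2 transcripts, 0 begin at exactly the RefSeq start used. Both strands were searched and no matches overlapped one another. Of 32851 windows of the same length over all genes, 28.2% held at least 1 match and 2.77% held at least 3. A match describes letters in the window and not a bound site, and the receptor's enhancers can lie farther away.

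Each library held between 20.4 M and 33.1 M counted reads. Levels are CPM, read counts put on a shared library size by TMM scaling, as mean ± SD with n = 4. Differences are log2 fold changes ± SE from edgeR's quasi-likelihood fit of all libraries, adjusted by Benjamini-Hochberg over 15429 genes, and called means an adjusted p below 0.05. The epithelial label fitted the markers, with Epcam at 1468 CPM or more in every library. Mesenchymal transcripts stood apart in 3 libraries, replicates 1 and 2 of DMSO 6 h and replicate 3 of dFz7-21 24 h. The summed level of 10 mesenchymal markers was 139 CPM or more there and 14.1 CPM or less in the other 21, with Col1a1 at 10.2 CPM or more against 0.657 CPM or less. DMSO 24 h replicate 2 and Fz7-21S 24 h replicate 4 had the fewest genes with a read, 16897 and 17787, against 18618 or more elsewhere.

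Cyp1a1, the P450 most used as a readout of the receptor, was higher with dFz7-21 than with DMSO at 6 h and at 24 h. The gene lies on chromosome 9 at 57687928 to 57703824 (GRCm38, Entrez ID 13076). At 6 h it stood at 235, 210, 232 and 200 CPM in the DMSO libraries. With dFz7-21 at 6 h it stood at 329, 264, 316 and 252 CPM. The lowest dFz7-21 library lay above the highest DMSO library, which was so, in either direction, for 24.5% of all genes tested. The log2 difference was 0.41 ± 0.09, a 1.33-fold rise (95% interval 0.21 to 0.60, edgeR adjusted p = 0.00497), in a contrast where 11.0% of genes were called. At 24 h the DMSO libraries held 41.4, 52.7, 48.1 and 46.1 CPM. The dFz7-21 libraries at 24 h held 68.3, 88.0, 69.8 and 70.9 CPM and again lay all above DMSO, and 38.4% of all genes had separate groups in either direction. The log2 difference there was 0.66 ± 0.10, a 1.58-fold rise (95% interval 0.46 to 0.86, edgeR adjusted p = 1.13e-05), where 35.9% of genes were called. These tests share their DMSO libraries with the contrast that chose the gene. A choice for Fz7-21S above DMSO favours low DMSO values, which leans these tests towards a rise. In bulk RNA more cells that express a gene and more RNA per cell cannot be told apart.

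The values that chose Cyp1a1 were as follows. With Fz7-21S it stood at 350, 327, 354 and 357 CPM at 6 h and at 65.5, 73.3, 77.2 and 86.3 CPM at 24 h. The fitted differences from DMSO were 0.66 ± 0.09 at 6 h and 0.68 ± 0.10 at 24 h on the log2 scale, with no overlap, as for 3.08% and 2.74% of all genes in the upward direction. Between 6 h and 24 h the mean fell from 219 ± 16.9 to 47.1 ± 4.70 CPM in DMSO, from 290 ± 38.0 to 74.3 ± 9.23 CPM with dFz7-21 and from 347 ± 13.8 to 75.6 ± 8.67 CPM with Fz7-21S. The gene thus lost most of its transcript in every treatment, by 4.65, 3.91 and 4.59 times, and no 24 h library reached a 6 h library of its treatment, as for 25.9%, 30.7% and 24.3% of all genes in the downward direction. Set in order, Fz7-21S at 6 h was highest, then dFz7-21 and DMSO at 6 h, then both peptides at 24 h, then DMSO at 24 h. Neighbours in that order were separate except for the peptides: at 6 h their ranges met at 327 and 329 CPM, and at 24 h they overlapped widely. The difference of dFz7-21 from Fz7-21S was -0.26 ± 0.09 at 6 h (95% interval -0.45 to -0.06) and -0.02 ± 0.10 at 24 h (-0.22 to 0.18), where its sign changed with the scaling, both untested because Fz7-21S values chose the gene. The rise over DMSO was greater by 0.25 ± 0.14 at 24 h than at 6 h (95% interval -0.03 to 0.53), also a description.

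**Figure D1:**
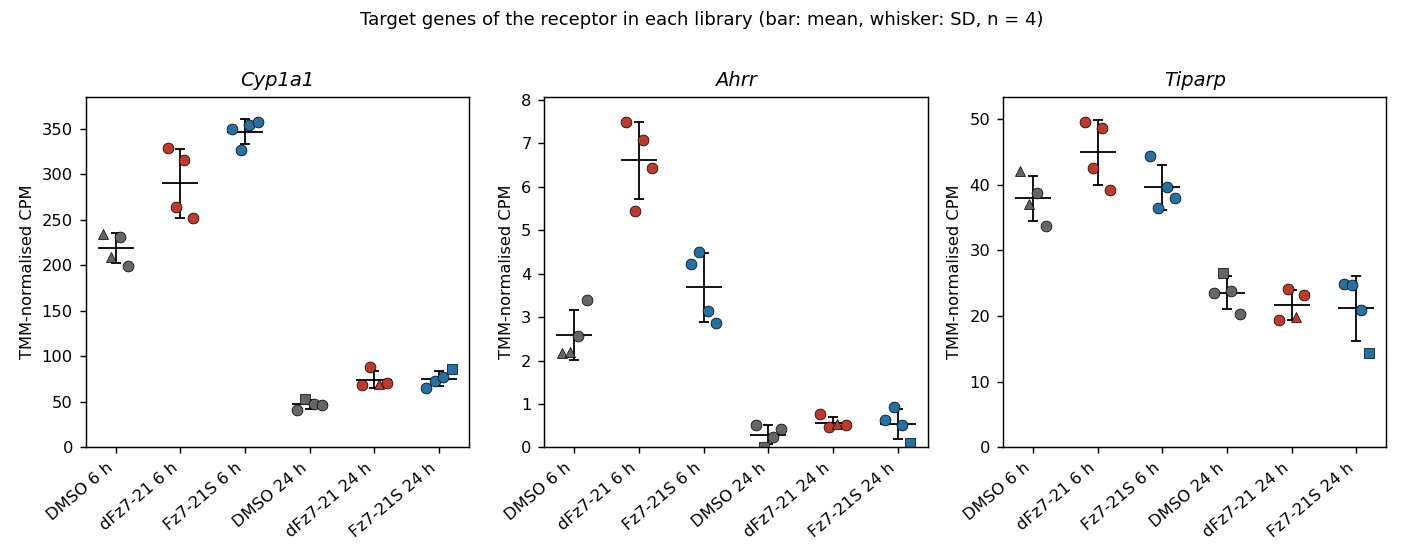
TMM-normalised CPM of Cyp1a1, Ahrr and Tiparp in each of 24 libraries (points) with the mean and SD of each group (bar and whisker); triangles mark the 3 libraries with mesenchymal transcripts and squares the 2 with the fewest genes. All 4 dFz7-21 libraries lie above all 4 DMSO libraries for Cyp1a1 at both times and for Ahrr at 6 h, and every 24 h library lies below every 6 h library of its treatment in all 3 panels.

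Ahrr, the repressor of the receptor, rose with dFz7-21 at 6 h. The gene is on chromosome 13 at 74211118 to 74292331 (Entrez ID 11624), and its promoter window was the one with 3 core matches. At 6 h the DMSO libraries held 2.17, 2.19, 2.57 and 3.40 CPM, from 61, 69, 62 and 86 reads. The dFz7-21 libraries held 7.48, 5.44, 7.09 and 6.44 CPM, from 185, 138, 192 and 171 reads. The groups did not overlap, as for 24.5% of all genes in either direction. The log2 difference was 1.36 ± 0.33, 2.56-fold (95% interval 0.67 to 2.05, edgeR adjusted p = 0.00798), where 11.0% of genes were called. Both DMSO libraries with mesenchymal transcripts were at the low end; without the 3 mesenchymal libraries the difference was 1.14 and the call was lost (edgeR adjusted p = 0.0685), but it passed at 1.13 when the 2 libraries with fewest genes were left out too (edgeR adjusted p = 0.000107). Leaving out any single library of the 24 kept the call (edgeR adjusted p from 0.000674 to 0.0422).

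With Fz7-21S at 6 h Ahrr stood at 4.22, 4.49, 3.15 and 2.87 CPM. All 4 dFz7-21 libraries were above these, as were 11.1% of genes, yet the difference of 0.85 ± 0.33 (95% interval 0.16 to 1.53) did not pass (edgeR adjusted p = 0.144, with 7.04% of genes called). It did pass in a fit of those 8 libraries alone (edgeR adjusted p = 3.74e-05) and with DESeq2 (adjusted p = 0.0102). Leaving out Fz7-21S 24 h replicate 4, a library of neither group, also brought it past the threshold (edgeR adjusted p = 0.0370). At 6 h Cyp1a1 thus had its highest mean with Fz7-21S and Ahrr with dFz7-21, and that contrast between the genes was not tested.

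At 24 h Ahrr was near the limit of detection, since a count of 0 allows up to 3 reads, or 0.0906 to 0.147 CPM. DMSO libraries held 17, 0, 7 and 10 reads, dFz7-21 libraries 16, 11, 13 and 11, and Fz7-21S libraries 15, 21, 14 and 2. The difference of dFz7-21 from DMSO was 0.88 ± 0.48 (95% interval -0.12 to 1.88, edgeR adjusted p = 0.164) and from Fz7-21S 0.07 ± 0.46 (edgeR adjusted p = 0.923). Neither passed, nor did the change of the effect between the times, -0.48 ± 0.61 (edgeR adjusted p = 0.686, 13.2% of genes called). As a description, the log2 change of Ahrr from 6 h to 24 h was -3.05 in DMSO, -3.53 with dFz7-21 and -2.75 with Fz7-21S.

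Tiparp, the ADP-ribosyltransferase, was not called in any tested comparison. It lies on chromosome 3 at 65528447 to 65555518 (Entrez ID 99929) and overlaps the long non-coding gene 4931440P22Rik, which had 7 to 49 reads per library. At 6 h it stood at 42.1, 37.1, 38.8 and 33.8 CPM in DMSO, at 49.5, 42.6, 48.7 and 39.2 CPM with dFz7-21, and at 44.4, 36.5, 39.7 and 38.0 CPM with Fz7-21S. The dFz7-21 mean was highest but the groups overlapped, and the difference from DMSO was 0.24 ± 0.12 (95% interval -0.01 to 0.50, edgeR adjusted p = 0.240). In a fit of the compared groups alone it passed narrowly (edgeR adjusted p = 0.0453). At 24 h the means were 23.6 ± 2.52 CPM in DMSO, 21.7 ± 2.34 CPM with dFz7-21 and 21.2 ± 4.93 CPM with Fz7-21S, with overlapping libraries. The dFz7-21 difference from DMSO there was -0.12 ± 0.13 (edgeR adjusted p = 0.507), and its change from 6 h was -0.36 ± 0.18 (edgeR adjusted p = 0.205). Its log2 change from 6 h to 24 h, as a description, was -0.69 in DMSO, -1.05 with dFz7-21 and -0.90 with Fz7-21S.

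**Figure D2:**
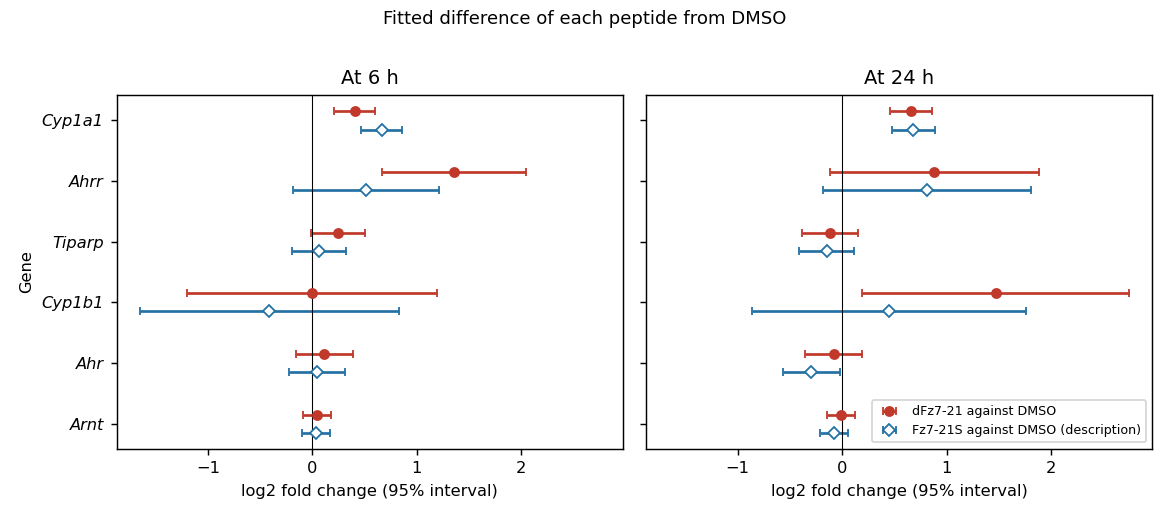
Fitted log2 fold change of each peptide from DMSO at 6 h (left) and 24 h (right) for the 6 genes that passed the count filter; points are estimates and whiskers 95% intervals, filled for the tested dFz7-21 contrast and open for the descriptive Fz7-21S contrast. Cyp1a1 lies above 0 with both peptides at both times, and Ahrr with dFz7-21 has 1.36 at 6 h. Arnt lies close to 0, as does Ahr except with Fz7-21S at 24 h. There Ahr is at -0.30 (95% interval -0.57 to -0.02), in a group where replicate 4 was low at 16.2 CPM.

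Cyp1b1, a P450 found in many mesenchymal as well as epithelial cells, followed the mesenchymal libraries. The gene is on chromosome 17 at 79706940 to 79715061 (Entrez ID 13078). At 6 h DMSO held 4.74, 3.55, 1.45 and 1.34 CPM, dFz7-21 2.71, 2.52, 3.54 and 2.37 CPM, and Fz7-21S 1.81, 1.66, 2.51 and 2.38 CPM. At 24 h the values were 1.25, 0.857, 1.20 and 1.94 CPM in DMSO, 0.771, 1.39, 11.5 and 0.832 CPM with dFz7-21, and 1.99, 1.72, 2.24 and 1.17 CPM with Fz7-21S. The 3 highest values of all 24 were those of the 3 mesenchymal libraries, the lowest of them at 3.55 CPM against 3.54 CPM for the highest other library. Over all libraries the difference of dFz7-21 from DMSO was -0.00 ± 0.58 at 6 h (edgeR adjusted p = 0.999) and 1.47 ± 0.62 at 24 h (edgeR adjusted p = 0.0672). Without the 3 mesenchymal libraries these became 0.99 (edgeR adjusted p = 0.0682, and called at adjusted p = 0.00711 when the 2 libraries with fewest genes were left out too) and -0.38 (edgeR adjusted p = 0.362), so the direction at 24 h was that of 1 library. Without them Cyp1b1 was lower with dFz7-21 than with Fz7-21S at 24 h, by -0.83 (edgeR adjusted p = 0.0356), against 1.03 ± 0.61 with all libraries (edgeR adjusted p = 0.201). The change of the dFz7-21 effect between the times likewise went from 1.47 (edgeR adjusted p = 0.293) to -1.38 (edgeR adjusted p = 0.0400).

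**Figure D3:**
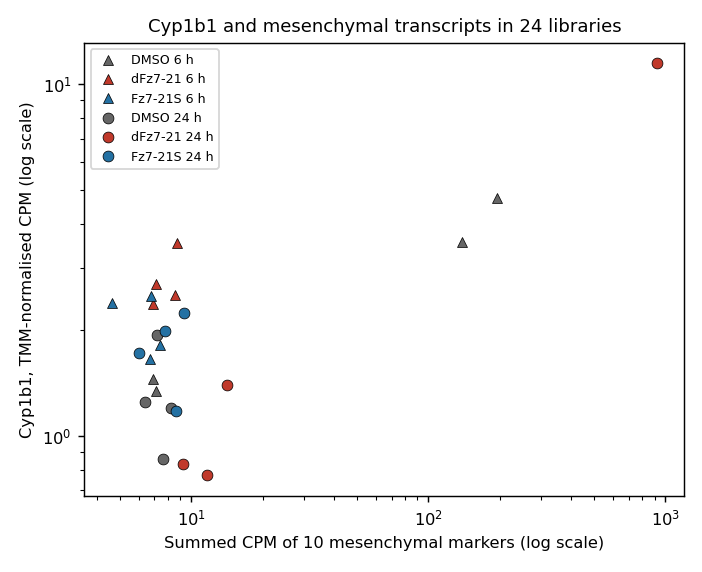
Cyp1b1 in TMM-normalised CPM against the summed CPM of 10 mesenchymal markers, both on log scales, 1 point per library, coloured by treatment and shaped by time. The 3 libraries at 139 CPM or more of markers have Cyp1b1 at 3.55 CPM or more, and within the other 21 it runs from 0.771 to 3.54 CPM.

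Ahr and Arnt, which encode the receptor and its partner, were not called in any tested comparison. Ahr (chromosome 12, 35497979 to 35534989, Entrez ID 11622) stood at 38.0 ± 2.64 CPM in DMSO, 41.3 ± 0.862 CPM with dFz7-21 and 39.4 ± 1.51 CPM with Fz7-21S at 6 h. At 24 h it stood at 34.1 ± 3.77, 32.3 ± 2.80 and 27.7 ± 7.69 CPM in the same order. The low mean with Fz7-21S at 24 h came from replicate 4, at 16.2 CPM against 31.0 to 32.1 CPM in the other 3. The dFz7-21 difference from DMSO was 0.12 ± 0.13 at 6 h (95% interval -0.15 to 0.39, edgeR adjusted p = 0.683) and -0.08 ± 0.13 at 24 h (-0.35 to 0.19, edgeR adjusted p = 0.678). Arnt (chromosome 3, 95434367 to 95497240, Entrez ID 11863) was the steadiest of the 7, with group means from 63.7 to 67.8 CPM. Its dFz7-21 difference from DMSO was 0.05 ± 0.06 at 6 h (95% interval -0.09 to 0.18, edgeR adjusted p = 0.755) and -0.01 ± 0.07 at 24 h (-0.15 to 0.12, edgeR adjusted p = 0.913). Fz7-21S 24 h replicate 4 was low here as well, at 52.7 CPM against 66.7 to 68.2 CPM.

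**Figure D4:**
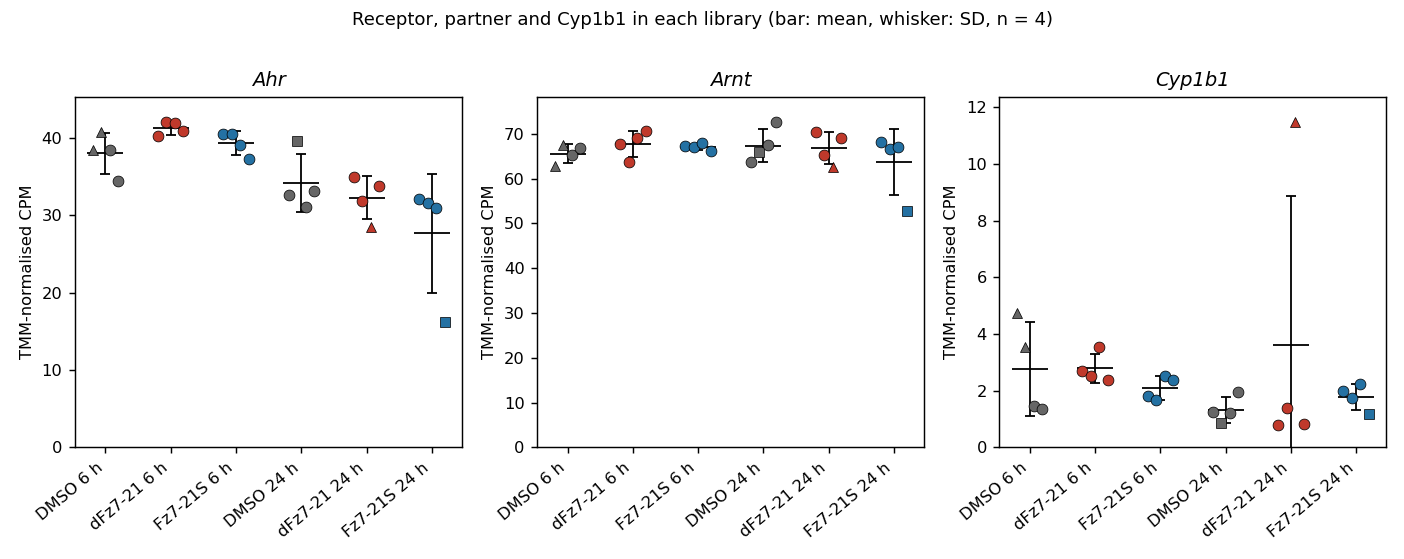
TMM-normalised CPM of Ahr, Arnt and Cyp1b1 in each of 24 libraries (points) with the mean and SD of each group (bar and whisker, the whisker stopping at 0); triangles mark the 3 libraries with mesenchymal transcripts and squares the 2 with the fewest genes. Ahr and Arnt have 1 low library, Fz7-21S 24 h replicate 4, and the highest Cyp1b1 value, 11.5 CPM, is in dFz7-21 24 h replicate 3.

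Cyp1a2, the CYP1 gene best known from liver, was barely detected (chromosome 9, 57676937 to 57683655, Entrez ID 13077). It had 41 reads in all 24 libraries together, 0 to 7 in each and 0 in 10 of them. It failed the filter on low counts and has no test. The other 6 genes passed the filter. Of these, Cyp1a1 and Ahrr were called at 6 h and Cyp1a1 at 24 h in dFz7-21 against DMSO. Over all genes 11.0% were called at 6 h and 35.9% at 24 h, and nothing is read from the counts of members. Cyp1a1 has no test against Fz7-21S. Of the other 5, edgeR called 0 against Fz7-21S at 6 h (1 at an unadjusted p below 0.05 and 1 by DESeq2, both Ahrr), where 7.04% of genes were called. At 24 h it called 0 (0 unadjusted and 0 by DESeq2), where 33.7% of genes were called.

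Per length, in the deposited RPKM (reads scaled to gene length and library size), Cyp1a1 was the most abundant of the 7 at 6 h, at 76.4 ± 5.81 in DMSO (n = 4). Arnt followed at 14.8 ± 0.493 RPKM, Tiparp at 9.12 ± 0.824, Ahr at 6.91 ± 0.482, Cyp1b1 at 0.459 ± 0.274, Ahrr at 0.429 ± 0.0956 and Cyp1a2 at 0.0480 ± 0.0443. All neighbours were separate except Cyp1b1 and Ahrr, whose libraries overlapped. By 24 h in DMSO Cyp1a1 was at 16.3 ± 1.58 RPKM and overlapped Arnt at 15.1 ± 0.862, and Ahr at 6.16 ± 0.660 overlapped Tiparp at 5.63 ± 0.587. Ahrr was at 0.0478 ± 0.0366 RPKM there.

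More genes of the wider pathway were called at 24 h than at 6 h with dFz7-21 against DMSO, as over all genes, and most of them rose. Of 17 tested genes on a list of other known targets of the receptor, 4 rose and 1 fell at 6 h (median log2 change 0.13, against 0.01 over all genes; 6.05% of genes were called higher and 5.0% lower). At 24 h 12 rose and 2 fell (median 0.73, against -0.01; 18.2% higher and 17.7% lower over all genes). Nqo1, a quinone reductase, rose by 0.25 ± 0.06 at 6 h (edgeR adjusted p = 0.00324) and by 0.80 ± 0.06 at 24 h (edgeR adjusted p = 6.66e-11). The glutathione transferase Gsta2 rose by 1.23 ± 0.16 at 24 h, as did the glucuronosyltransferases Ugt1a6a by 0.73 ± 0.07 and Ugt1a6b by 0.74 ± 0.07. The Ugt1a genes share exons, so their separate counts are uncertain. Named after their values were seen, the other genes that rose at 6 h were Cyp2s1 (0.36), Nfe2l2 (0.16) and the EGF receptor ligand Ereg (0.66), while the amino acid transporter Slc7a5 fell by 0.27, and at 24 h Slc7a5 and Cdkn1b fell by 0.28 and 0.26. Without the 3 mesenchymal libraries 16 of these targets were called at 24 h, against 14 with them. The count over all genes moved too, from 5537 with all libraries to between 4846 and 7257 over the alternative fits. Compared with Fz7-21S in place of DMSO at 24 h, 11 of the 17 were higher with dFz7-21 and 2 lower, where 33.7% of all genes were called. Gsta2 did not pass there (0.26 ± 0.16, edgeR adjusted p = 0.219). With Fz7-21S at 24 h Gsta2 was above DMSO by 0.98 ± 0.16 and Nqo1 by 0.39 ± 0.06. The median of the 17 was 0.06 in that contrast, against 0.01 over all genes.

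Of 25 tested P450s and partners outside the CYP1 family, 2 rose and 1 fell at 6 h, and 21 rose and 1 fell at 24 h (median 0.59). Over all genes 11.0% were called at 6 h, near the share of this list, and 18.2% were higher and 17.7% lower at 24 h. Por, the reductase that feeds electrons to all microsomal P450s, rose by 0.68 ± 0.07 at 24 h. Cyp2c55 rose by 0.90 ± 0.08, Cyp4f14 by 0.88 ± 0.09, Cyp2j6 by 0.59 ± 0.07 and the electron carrier Cyb5a by 0.59 ± 0.10. Named after its value was seen, Cyp2e1 was the gene that fell, by 0.85 at 6 h and 1.28 at 24 h. With Fz7-21S in place of DMSO at 24 h, 18 of the 25 were higher with dFz7-21 and 1 lower (33.7% of all genes called). Cyb5a did not pass there (0.26 ± 0.10, edgeR adjusted p = 0.0505). In DMSO, 21 of the 25 rose and 0 fell between 6 h and 24 h (median 0.84), where 27.3% of all genes were called higher and 24.9% lower. Cyp1a1, Ahrr and Tiparp went down. The fall of Cyp1a1 with time helped to choose the gene, so the opposite directions are a description only. Markers of absorptive enterocytes rose too: 10 of 10 were called higher with dFz7-21 than with DMSO at 24 h and 0 of 10 at 6 h, and 8 were higher and 1 lower at 24 h than at 6 h in DMSO. Their summed level was 2233 to 3074 CPM in DMSO 6 h, 3952 to 4869 CPM in DMSO 24 h and 6535 to 7701 CPM in dFz7-21 24 h, and all 10 were detected in the files. Stem cell and goblet markers moved at both times. Of 5 stem cell markers, 4 fell with dFz7-21 against DMSO at 6 h (median -1.20) and 5 at 24 h (median -2.11). Their summed level was 1944 to 2086 CPM in DMSO and 1377 to 1583 CPM with dFz7-21 at 6 h, and 2043 to 2739 CPM against 248 to 369.5 CPM at 24 h. Of 6 goblet markers, 2 rose at 6 h and 5 at 24 h (medians 0.21 and 0.87), and of 6 Paneth markers 0 were called at 6 h and 6 fell at 24 h (median -0.47). The part of cell composition in these counts was not tested.

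**Figure D5:**
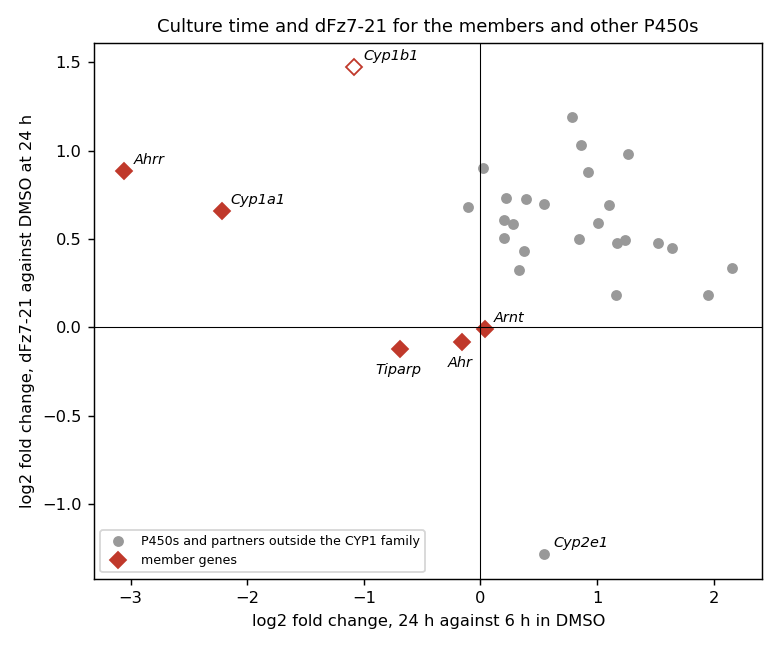
Fitted log2 fold change from 6 h to 24 h in DMSO (horizontal) against that of dFz7-21 from DMSO at 24 h (vertical); grey points are 25 P450s and partners outside the CYP1 family, red diamonds the 6 receptor pathway genes, open for Cyp1b1, whose vertical value rests on 1 library. Both axes use the DMSO 24 h libraries, so the picture shows values side by side and no relation; Cyp1a1 lies at -2.22 and 0.66, and 21 of the grey points were called higher on each axis.

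Conjugating enzymes and efflux pumps, which act after the P450s, showed 2 genes higher and 0 lower of 23 at 6 h, and 20 higher and 0 lower at 24 h (median 0.60). Over all genes 6.05% were higher and 5.0% lower at 6 h, so the count at 6 h is near the background, and 18.2% were higher and 17.7% lower at 24 h. This list holds Ugt1a1, Ugt1a6a, Ugt1a6b and Ugt1a7c, whose shared exons let the same reads count more than once. Ugt1a6a, Ugt1a6b, Gsta1, Gsta2 and Abcg2 are on the list of receptor targets too, and other lists also share genes, so their counts are not independent. Ugt1a1 rose by 0.74 ± 0.06, Ugt1a7c by 0.70 ± 0.05, Gstm1 by 0.96 ± 0.10 and Gsta3 by 0.57 ± 0.08 at 24 h. The 2 that rose at 6 h, named after their values were seen, were Gsta4 (0.39) and the pump Abcc3 (0.57). NRF2 is a transcription factor that responds to oxidants and also drives Nqo1. On the list of its targets, 5 of 16 rose at 6 h and 13 at 24 h, with 0 lower (median 0.43 at 24 h). The sulfiredoxin Srxn1 rose by 0.23 ± 0.06 at 6 h and 0.84 ± 0.06 at 24 h, Osgin1 by 0.32 ± 0.07 and 0.78 ± 0.07, and malic enzyme Me1 by 0.37 ± 0.09 and 0.77 ± 0.09. Gclm, a subunit of the enzyme that makes glutathione's precursor, rose by 0.33 ± 0.04 at 24 h. Among 12 tested genes of tryptophan transport and breakdown, 1 rose and 1 fell at 6 h, and 8 rose and 1 fell at 24 h (median 0.36), to be read against the same shares of all genes, as are the NRF2 counts. The monoamine oxidases Maoa and Maob rose by 0.80 ± 0.07 and 0.55 ± 0.07 at 24 h, and Ddc and Slc3a2 by 0.36 ± 0.06 each. Tdo2, Ido1 and Ido2, which open the kynurenine route, were below the filter with at most 3, 11 and 11 reads in a library. Against Fz7-21S at 24 h, 15 of 23 conjugation, 8 of 16 NRF2 and 7 of 12 tryptophan genes were higher, and 0, 0 and 1 lower (33.7% of all genes called). Gsta3 (0.003 ± 0.08, edgeR adjusted p = 0.982), Gclm (0.06 ± 0.04, edgeR adjusted p = 0.265) and Slc3a2 (0.07 ± 0.06, edgeR adjusted p = 0.374) did not pass there. Gsta3 was above DMSO by 0.57 ± 0.08 with Fz7-21S at 24 h as well. So were Gstm1 by 0.48 ± 0.10, Me1 by 0.45 ± 0.09, Osgin1 by 0.32 ± 0.07, Slc3a2 by 0.29 ± 0.06 and Gclm by 0.27 ± 0.04. Maob was below DMSO there, at -0.06 ± 0.07. Median differences of Fz7-21S from DMSO at 24 h were 0.29 for conjugation, 0.24 for NRF2 and 0.06 for tryptophan genes, against 0.01 over all genes.

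Genes of the receptor's own machinery moved in both directions at 24 h, at about the share of all genes. Of 14 tested genes of the receptor complex and its cofactors, edgeR called 0 at 6 h (1 at an unadjusted p below 0.05 and 1 by DESeq2), and 2 rose and 3 fell at 24 h (median -0.11), where 18.2% of all genes were called higher and 17.7% lower. Rb1 rose by 0.44 ± 0.10. Hsp90ab1 fell by 0.26 ± 0.05, Arnt2 by 0.43 ± 0.11 and the chromatin remodeller Smarca4 by 0.16 ± 0.05. Ncoa3, a coactivator also taken by the rule for named genes, was at 0.01 ± 0.09. Of 12 tested relatives in the bHLH-PAS family, 1 rose at 6 h, and 1 rose and 2 fell at 24 h (median -0.11), against 35.9% of all genes called in either direction. Epas1, a hypoxia factor, rose by 0.38 ± 0.09 at 6 h and 0.33 ± 0.10 at 24 h. The clock factor Arntl2 fell by 1.05 ± 0.18 at 24 h, with Arnt2 the other that fell, while Per1 at -0.09 ± 0.07 and Clock at 0.02 ± 0.14 were not called. Without the 3 mesenchymal libraries 22 of the P450 list, 19 of the conjugation list, 13 NRF2 targets and 9 tryptophan genes were called at 24 h. Over all genes, 5537 were called in that contrast with all libraries and 4846 to 7257 over the alternative fits. Counts at 6 h were small and moved with the settings: receptor targets had 1 to 8 genes called, NRF2 targets 0 to 7 and conjugation genes 1 to 7. Against Fz7-21S at 24 h, 3 of the 14 machinery genes were higher and 1 lower, and 2 of the 12 relatives higher and 1 lower (33.7% of all genes called). Arnt2 (-0.15 ± 0.11, edgeR adjusted p = 0.331) and Smarca4 (-0.03 ± 0.05, edgeR adjusted p = 0.620) did not pass there.

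The genes whose log2 CPM followed Cyp1a1 most closely over the 24 libraries were Ly6m (Pearson r = 0.978), Prkab1 (0.976), Ifrd1 (0.972), Cldn4 (0.972), Lpcat4 (0.970), Slc2a1 (0.970), Ly6d (0.969) and Psmb8 (0.968), of 10442 candidates. The 24 libraries share 6 groups, so the drop with time enters these values. Within groups, after removing group means, r was 0.605 for Ifrd1, 0.537 for Ly6d and between -0.123 and 0.366 for the other 6. Cldn4, a tight junction claudin, went from 979 CPM at 6 h to 197 CPM at 24 h in DMSO. Slc2a1, a glucose transporter, went from 179 to 99.0 CPM. With Spearman ranks 3 of the 8 stayed on the list, and without the mesenchymal libraries 7 did. Among the receptor pathway genes r with Cyp1a1 was 0.881 for Ahrr, 0.870 for Tiparp, 0.545 for Ahr, 0.355 for Cyp1b1 and 0.0648 for Arnt, but -0.537 for Ahrr and 0.134 for Tiparp within groups.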

How the data were processed

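Polyadenylated RNA from 24 organoid libraries was analysed. The authors deposited 1 table per library with a count and an RPKM for each of 36528 Entrez IDs, per the file headers. The submitters' processing notes name GSNAP and build GRCm38. Its version, the annotation and the strand setting were not given in the sources used here. Symbols for 31049 IDs came from the RefSeq table of GRCm38.p6. The remaining IDs, with 2.55% to 3.51% of a library's counts, stayed in the tests unnamed. Deposited RPKM served only to compare genes per length. Total counts were 20.4 M to 33.1 M per library. Floors cover counting error only.

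Counts were tested with edgeR 4.0.16 in R 4.3.3 (TMM, filterByExpr, robust quasi-likelihood F test, 1 fit of all libraries, 15429 genes). On simulated counts the procedure was tested for recovery of known changes. Groups came from the labels. The 7 genes, the gene lists and the tests were chosen with earlier results of these data known. Beyond the 7, the genes named are, of each list, the 3 with the smallest p for dFz7-21 and the 3 for Fz7-21S against DMSO at 24 h, and the 8 with the highest r with Cyp1a1 at a mean log2 CPM of at least 2 (prior count 2). Some genes on the lists are not reported by name here. The 95% intervals use the fit's degrees of freedom.

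Alternatives were DESeq2 1.42.0, RLE factors, no filter, a replicate block, the compared groups alone, each library left out, and the mesenchymal libraries left out. A further one also left out the 2 libraries with fewest genes and was chosen after seeing the data. Replicates differed beyond counting error, with chi-square over its degrees of freedom between 2.77 and 88.9. The pairs with Fz7-21S 24 h replicate 4 gave 69.6 to 88.9, and every other pair gave 16.8 or less. Replicate numbers counted as paired where deviations from group means correlated above 0.1 for all 4 numbers, over 10391 genes. That held only between dFz7-21 24 h and Fz7-21S 24 h, at 0.117 to 0.333. Between dFz7-21 6 h and Fz7-21S 6 h the values ran from 0.0998 to 0.273, just short of the threshold. The labels do not say that numbers mark a shared source.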

Additional observations from a re-analysis of the deposited data

Results flagged for a closer look

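In groups of 4, 8 of 42 gene and group combinations had 1 library far from the other 3, by a gap test that chance alone passes in about 1 in 20 groups. That rate does not hold for Cyp1a2, where most libraries at 24 h had 0 reads and a lone library with reads passes by itself. Cyp1a1 was high in dFz7-21 24 h replicate 2, at 88.0 CPM against 68.3 to 70.9 CPM. Ahrr was high in dFz7-21 24 h replicate 1, at 0.771 CPM against 0.479 to 0.526 CPM. Cyp1b1 was high in dFz7-21 24 h replicate 3, the library with the most mesenchymal transcripts, at 11.5 CPM against 0.771 to 1.39 CPM. Ahr at 16.2 CPM and Arnt at 52.7 CPM were both low in Fz7-21S 24 h replicate 4, against at least 31.0 and 66.7 CPM in the other 3. Cyp1a2 was at 0.119 CPM in DMSO 24 h replicate 1, 0.121 CPM in dFz7-21 24 h replicate 3 and 0.221 CPM in Fz7-21S 24 h replicate 2, from 4, 3 and 5 reads, against 0 to 0.0362 CPM in the others.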

How the results depend on the processing

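Over 84 results, 2458 of 2604 alternative values were scored as the same, by a rule that differed with the kind of result. Tests had to keep direction and call. Untested differences had to keep their sign and move by less than the spread within groups, or less than the SE for the change between times. Counts of genes called had to stay within 1.5-fold. The total therefore does not measure the stability of the tests alone. The cause of each change below was not tested. Cyp1a1 against DMSO stayed called throughout. The replicate block changed no call of these genes: Cyp1a1 differed from DMSO by 0.41 at 6 h and 0.66 at 24 h with it, and Ahrr by 1.34 at 6 h.

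Without the mesenchymal libraries, and in brackets without those and the 2 libraries with fewest genes, the log2 differences of Cyp1b1 were 0.99 (0.99, then called) from DMSO at 6 h for dFz7-21, -0.38 (-0.49) at 24 h, -0.83 (-0.95) from Fz7-21S at 24 h, -1.38 (-1.48) for the change between times, 0.58 (0.59) for Fz7-21S from DMSO at 6 h and -1.47 (-1.44) for time with dFz7-21. Its time change in DMSO was 0.0413 in the latter setting. RLE factors and DESeq2 gave Cyp1b1 0.000991 and 0.00840 at 6 h. Ahrr from DMSO at 6 h was not called at 1.14 without the mesenchymal libraries. Ahrr from Fz7-21S at 6 h was called at 0.85 with the compared groups alone, DESeq2 and the latter setting, and was -0.18 at 24 h in the latter setting. Tiparp at 6 h was called at 0.23 with the compared groups alone and 0.30 in the latter setting, where it was -0.0418 from Fz7-21S at 24 h and 0.0399 for Fz7-21S from DMSO at 24 h. Values near 0 changed sign: Ahr from DMSO at 24 h was 0.0727 in the latter setting, Arnt from DMSO at 24 h was 0.00728 with RLE, 0.00723 with DESeq2, 0.0199 without the mesenchymal libraries and 0.0298 in the latter setting, its time change with dFz7-21 was 0.0103 and 0.0353 without libraries, and its change between times 0.000548. Cyp1a1 from Fz7-21S at 24 h was 0.00599 with RLE, 0.00588 with DESeq2, 0.00431 without the mesenchymal libraries and 0.104 in the latter setting.

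Leaving out single libraries, Cyp1b1 ran from -0.22 to 0.38 (6 h) and -0.36 to 1.80 (24 h, negative without dFz7-21 replicate 3 and called without replicate 1, 2 or 4) from DMSO, -0.80 to 1.36 from Fz7-21S at 24 h, -0.35 to 1.82 for the change between times and -1.44 to 0.72 for time with dFz7-21. Ahrr ran from 0.74 to 0.95 from Fz7-21S at 6 h and -0.23 to 0.46 at 24 h, Tiparp from -0.0903 to 0.141 and Cyp1a1 from -0.0939 to 0.0673 from Fz7-21S at 24 h. Ahr from DMSO at 24 h ran from -0.122 to 0.000224. Arnt ran from -0.0221 to 0.0431 from DMSO at 24 h, -0.0132 to 0.0432 from Fz7-21S at 6 h, -0.0494 to 0.0357 for time with dFz7-21 and -0.0894 to 0.00431 for the change between times.

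Counts of genes called moved. For dFz7-21 from DMSO at 6 h they were 3640 (compared groups alone), 698 (no mesenchymal libraries) and 1172 to 3134 over single libraries. From Fz7-21S they were 3159, 2863 in the latter setting and 638 to 2259 at 6 h, and 2305 (compared groups alone) at 24 h. For the change between times they were 3418, 3615 and 1771 to 3756. The 3134, 2259 and 3756 came without Fz7-21S 24 h replicate 4. Fz7-21S from DMSO at 6 h gave 1 gene with all libraries, 4 with DESeq2 and with the compared groups alone, 0 in both settings without mesenchymal libraries (249 and 606 at an unadjusted p below 0.05, edgeR) and 0 to 29 over single libraries (29 without dFz7-21 24 h replicate 3). At 24 h it gave 0 with the compared groups alone (639 unadjusted), 136 with DESeq2 and 22 to 1390 over single libraries (22 without DMSO replicate 2, 1390 without Fz7-21S replicate 1).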
